A study of Homo sapiens with 4 samples.

Results

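The genes described here encode plasma membrane and organelle carriers of amino acids from 6 solute carrier families, SLC1A, SLC3A, SLC7A, SLC36A, SLC38A and SLC43A. A gene was included where the array's own gene name was one of these family names followed by digits. The rule gave 36 genes of 30970 different gene or transcript names on the array, with 56 probes, and 18 of them (28 probes) gave enough signal to be tested. A549 is a human lung adenocarcinoma line. It was cultured without treatment (control, 2 samples) or with 15 µM embelin, a plant benzoquinone, for 4 h (2 samples), and the cells of all 4 samples had been moved to medium with less serum before treatment. The design asks which early changes in transcript level follow embelin exposure. Each Cy3-labelled RNA sample was hybridized to 1 Agilent array. Nothing in the labels says that the replicates were separate cultures, so the p-values measure the spread between these samples, which may be technical.

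Amino acid carriers work in groups. The heteromeric carriers pair a heavy chain (SLC3A1 or SLC3A2), which brings the complex to the membrane, with a light chain of the SLC7A family, which moves the amino acid and usually exchanges one for another. SLC1A carriers take up acidic or small neutral amino acids with sodium. SLC38A carriers take up or release glutamine and other small neutral amino acids with sodium. Some SLC36A carriers move amino acids with protons, and some SLC43A carriers let large neutral amino acids pass in either direction. Cells short of amino acids or under other stress raise the transcription factor ATF4, which acts on many of these genes together with partners of the C/EBP family.

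The binding motif of ATF4 with a C/EBP partner was looked for in the promoters because genes of that response were among those called in these samples. The letters searched were TGATGNAA on both strands, in windows from 250 bases before to 50 bases after each RefSeq start site (GRCh38.p14). Of all 35116 windows, 1270 (3.62%) held the motif, and of the 28 windows that matched 16 of the 18 tested carriers, 5 windows (17.9%) of 5 genes held it. These 5 windows are shown because they hold the same letters near the start sites of 5 carriers whose fold changes differed in sign. They belong to SLC1A4 (chr2:64989149-64989448, + strand), SLC1A5 (chr19:46784765-46785064, - strand), SLC3A2 (chr11:62881449-62881748, + strand), SLC7A1 (chr13:29595639-29595938, - strand) and SLC38A1 (chr12:46266467-46266766, - strand). Each is written 5′ to 3′ in the direction of the transcript, and the capitals mark the motif.
SLC1A4: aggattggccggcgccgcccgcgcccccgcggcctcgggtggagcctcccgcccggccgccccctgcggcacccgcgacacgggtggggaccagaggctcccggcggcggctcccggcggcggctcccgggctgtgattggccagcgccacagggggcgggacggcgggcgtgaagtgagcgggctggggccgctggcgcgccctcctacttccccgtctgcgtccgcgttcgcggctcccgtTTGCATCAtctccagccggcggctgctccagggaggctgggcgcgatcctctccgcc
SLC1A5: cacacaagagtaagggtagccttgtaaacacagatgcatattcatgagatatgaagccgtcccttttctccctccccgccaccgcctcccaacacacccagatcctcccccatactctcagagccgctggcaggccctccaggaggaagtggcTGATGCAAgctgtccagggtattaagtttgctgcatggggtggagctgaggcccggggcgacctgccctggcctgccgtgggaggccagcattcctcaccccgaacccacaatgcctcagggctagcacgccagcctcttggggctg
SLC3A2: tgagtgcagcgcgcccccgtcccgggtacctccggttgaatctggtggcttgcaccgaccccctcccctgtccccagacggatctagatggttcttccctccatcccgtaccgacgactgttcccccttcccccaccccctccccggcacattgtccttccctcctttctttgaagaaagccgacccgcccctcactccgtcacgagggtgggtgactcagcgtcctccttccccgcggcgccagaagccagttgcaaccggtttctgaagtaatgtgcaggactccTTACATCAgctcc
SLC7A1: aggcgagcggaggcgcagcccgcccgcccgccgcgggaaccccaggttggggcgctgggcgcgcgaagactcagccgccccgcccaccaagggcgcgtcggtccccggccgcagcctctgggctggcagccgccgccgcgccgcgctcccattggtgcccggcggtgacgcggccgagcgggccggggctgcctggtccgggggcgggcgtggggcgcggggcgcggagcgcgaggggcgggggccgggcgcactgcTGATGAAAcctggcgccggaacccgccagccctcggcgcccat
SLC38A1: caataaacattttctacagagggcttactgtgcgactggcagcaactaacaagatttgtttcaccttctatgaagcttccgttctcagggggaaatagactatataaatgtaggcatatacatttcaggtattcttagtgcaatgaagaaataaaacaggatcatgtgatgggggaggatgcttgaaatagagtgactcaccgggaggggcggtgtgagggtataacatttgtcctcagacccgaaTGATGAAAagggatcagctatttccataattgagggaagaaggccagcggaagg

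The motif starts 7 bases before the start site in SLC1A4, 97 before it in SLC1A5 and 4 before it in SLC38A1, and it starts after the start site in SLC7A1 and SLC3A2. Its letters stand on the transcript's strand in SLC1A5, SLC7A1 and SLC38A1 and on the opposite strand in SLC1A4 and SLC3A2. The log2 fold changes of the 5 genes, embelin over control, were 0.46 for SLC7A1, 0.40 for SLC3A2, -0.12 for SLC1A4, -0.16 for SLC38A1 and -0.47 for SLC1A5, so genes with the motif lay on both sides of 0. A match to these letters is a description and not a binding site.

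All samples shared 1 slide and 1 scan. Control arrays lay at positions 4 and 1 and embelin arrays at positions 2 and 3, so position and treatment cannot be fully told apart. Between 50.3% and 66.7% of probes were well above background, with the lower shares on control replicate 2 and embelin replicate 1, and embelin replicate 1 had 743 outlier spots where the other arrays had 47 to 296. All 9 markers of A549 cells were above background on all 4 arrays. Of 19 markers of blood, endothelial, fibroblast, muscle and hormone-responsive epithelial cells, 7 passed the filter, CDH5, DCN, PDGFRB and DES were not well above background on any array, and the log2 of the summed signal of those tested ran from 13.75 to 14.39 in control and from 13.72 to 14.07 in embelin samples. Of these 7, GATA3, a transcription factor of breast and urothelial cells, was called lower, with 7.23 and 7.19 in control and 5.08 and 5.03 in embelin samples, and it passed the filter only through the control samples, since embelin replicate 1 was not well above background. Each array held RNA of many cells, so that fewer cells with a transcript and less of it per cell cannot be told apart.

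No amino acid carrier was called in either direction. With limma and Benjamini-Hochberg adjustment over 17649 genes, 0 of the 18 tested carriers were higher, where 1.25% of all genes were called, and 0 were lower, where 0.561% were called. By fold change 7 carriers lay above 0 and 11 below it, with a median of -0.14 against -0.06 for all genes tested. The carriers' median was -0.0061 without embelin replicate 1 and -0.26 without embelin replicate 2. The median size of the change, regardless of sign, was 0.39 on the log2 scale for the carriers and 0.30 for all genes, and 16 of 18 carriers differed by less than 2-fold (88.9%, against 87.4% of all genes). For 10 of the 18, the 95% interval of the fold change lay within 2-fold in each direction, and for the other 8 it reached past 2-fold. An exact permutation test of 2 samples against 2 cannot give a p below 0.333.

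Without adjustment, 1 carrier (SLC1A1) was higher at p under 0.05 by limma, where 8.36% of all genes were. At the same limit 3 carriers (SLC3A1, SLC7A7 and SLC38A2) were lower, where 11.1% of all genes were. At the threshold of the study's methods, at least 2-fold with an unadjusted p under 0.05, 0 carriers were higher (4.26% of all genes) and 2 were lower, SLC3A1 and SLC7A7 (3.99% of all genes). SLC7A7 had passed the filter only through the control samples, where it was brighter, and without it the count was 1. Student's t-test, named in those methods, gave 0 higher and these 2 lower before adjustment, a count for which no share of all genes was taken. After adjustment it called 0 of all 17649 genes. Of 17 carriers with a value on every array, both embelin values lay above both control values in 5 (21.1% of all genes) and below them in 6 (30.7% of all genes), and the groups overlapped in the other 6. With so few carriers, none of these counts stands as a result about the family members as a group.

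**Figure D1:**
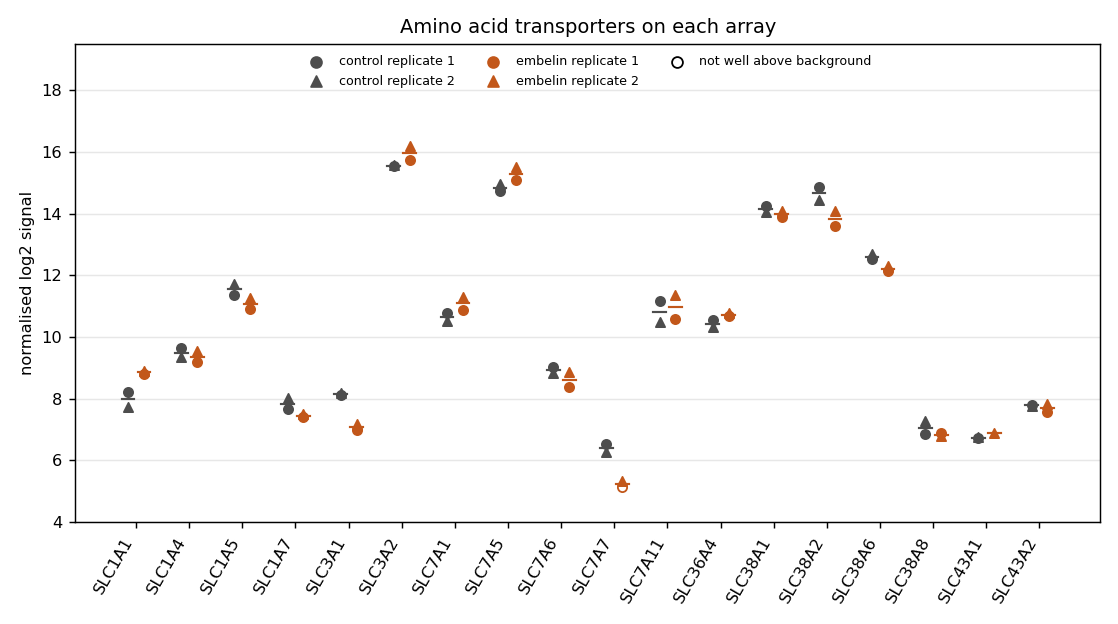
Normalised log2 signal (vertical axis) of the probe that stands for each of the 18 tested carriers (horizontal axis), with control samples in grey, embelin samples in orange, replicates by symbol and short lines at group means. The groups separate most clearly for SLC3A1 and SLC7A7, while those of SLC7A11 overlap. SLC7A7 passed the filter only through the control samples, and its embelin replicate 1 was not well above background. Signals of different genes come from different probes and have no common scale.

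Among the heavy chains, the measurements of SLC3A1 and SLC3A2 lay in opposite directions. SLC3A1 (rBAT) carries the light chain that takes up cystine and dibasic amino acids, and its loss causes cystinuria. Its normalised log2 signal was 8.12 and 8.17 in the control samples and 6.99 and 7.19 in the embelin samples, so both embelin values were below both control values. The log2 fold change was -1.06 (SE 0.17, 95% interval -1.53 to -0.59), which is 48.1% of the control level. The adjusted p by limma was 0.076. When all 4 arrays had to be well above background, the same difference had an adjusted p of 0.041 by limma. Under that filter 345 of 15542 genes were called lower, against 99 of 17649 in the main fit, so calls were more common there. SLC3A1 was the only carrier called under any alternative.

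SLC3A2 (CD98, 4F2hc) is the heavy chain of most other heteromeric carriers. It gave 15.53 and 15.59 in control and 15.73 and 16.18 in embelin samples, with both embelin values above both control values and the embelin values further apart. The log2 fold change was 0.40 (SE 0.22, interval -0.21 to 1.00, adjusted p 0.412 by limma). A second, dimmer probe gave 0.46 (SE 0.37). Its groups overlapped, with 13.25 and 13.78 in control and 13.57 and 14.38 in embelin samples.

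The light chains split as well. SLC7A5 (LAT1), which with SLC3A2 exchanges glutamine for leucine and other large neutral amino acids, gave 14.72 and 14.96 in control and 15.10 and 15.50 in embelin samples. The groups did not overlap, and the log2 fold change was 0.45 (SE 0.23, interval -0.16 to 1.07, adjusted p 0.369 by limma). Its second probe gave 0.74 (SE 0.19) with no overlap, at 10.01 and 10.09 in control and 10.66 and 10.92 in embelin samples. Control replicate 1 and embelin replicate 2 had the higher shares of probes above background. In this pair the brightest probes of SLC7A5 and SLC3A2 differed by 0.78 and 0.64. In the other pair (control replicate 2 and embelin replicate 1) they differed by 0.13 and 0.15.

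SLC7A11 (xCT) with SLC3A2 brings in cystine in exchange for glutamate and so feeds glutathione synthesis. On its brightest probe it varied within groups more than between them. The signal there was 11.16 and 10.48 in control and 10.57 and 11.37 in embelin samples, and the groups overlapped. The log2 fold change was 0.15 (SE 0.40, interval -0.93 to 1.24, adjusted p 0.879 by limma), an interval that includes a 2-fold rise. The value turned to -0.18 without control replicate 2 and to -0.25 without embelin replicate 2. Its second probe gave 0.69 (SE 0.26) with no overlap, at 9.95 and 9.97 in control and 10.37 and 10.94 in embelin samples. The dimmest probe gave 0.34 (SE 0.48) with overlap, so the 3 probes agreed in sign over all 4 arrays.

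SLC7A7 (y+LAT1), which exports dibasic amino acids and is lost in lysinuric protein intolerance, passed the filter only through the control samples. Its signal was dim at 6.54 and 6.26 in control and 5.12 and 5.33 in embelin samples, and embelin replicate 1 was not well above background, so the size of its difference rests in part on a value at background. The groups did not overlap, and the log2 fold change was -1.18 (SE 0.20, interval -1.72 to -0.63, adjusted p 0.080 by limma), or 44.3% of control. With the normexp background correction it was -0.50. SLC7A6 (y+LAT2), a close relative, gave -0.31 with overlapping groups, while its dimmer probe gave -0.94 (SE 0.37), and the mean over both was -0.63. SLC7A1 (CAT1), the arginine and lysine carrier that needs no heavy chain, gave 10.77 and 10.50 in control and 10.88 and 11.30 in embelin samples, a log2 fold change of 0.46 (SE 0.23) with no overlap. It was 0.67 without embelin replicate 1 and 0.25 without embelin replicate 2.

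**Figure D2:**
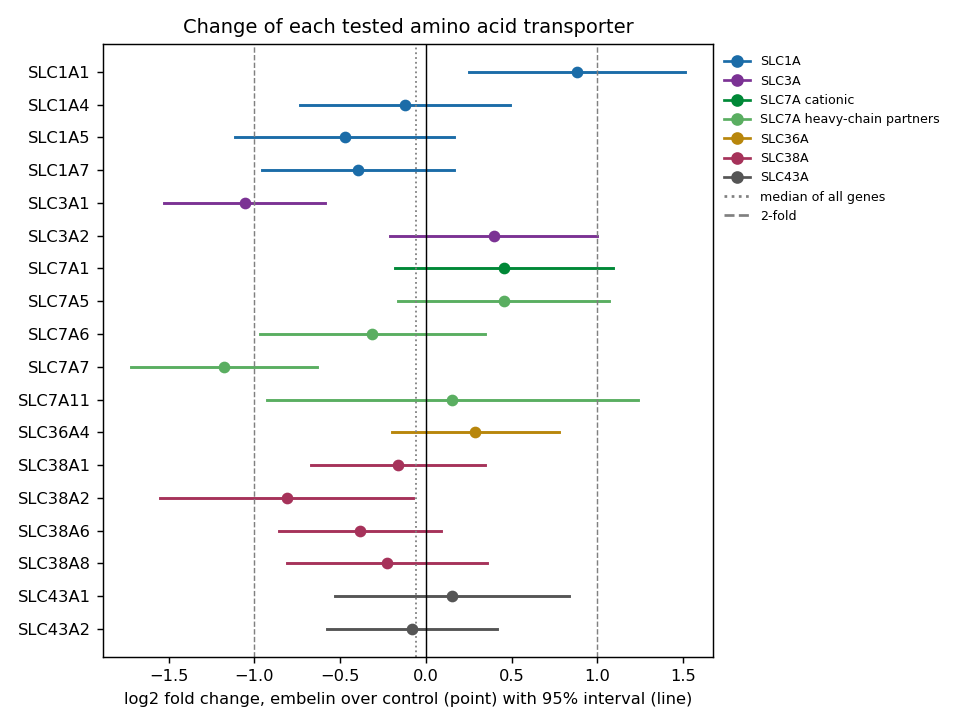
Log2 fold change, embelin over control, of the 18 tested carriers (points, horizontal axis) with 95% intervals (lines), coloured by family, with dashed lines at 2-fold and a dotted line at the median of all genes. The 4 genes named SLC38A on the array all lie below 0, and the intervals of 14 carriers include 0.

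The 4 tested SLC38A genes, of 7 on the array under this family name, all had fold changes below 0, with a median of -0.30. Other tested genes of the family were listed under older names and so lay outside the rule. SLC38A9 gave -0.65 with no overlap. SLC38A10 gave -0.04 and SLC38A7, a lysosomal glutamine carrier, gave 0.25 (SE 0.26), each with overlapping groups. SLC38A2 (SNAT2), the sodium-coupled carrier of alanine, glutamine and other small neutral amino acids that cells induce when starved of amino acids, had the largest difference of the 4. It gave 14.86 and 14.45 in control and 13.60 and 14.08 in embelin samples, with every embelin value below every control value. The log2 fold change was -0.81 (SE 0.27, interval -1.55 to -0.08), or 57.0% of control, with an adjusted p of 0.223 by limma. On this probe the difference was -0.77 in the pair of arrays with higher shares of probes above background and -0.85 in the other pair. Its dimmer probe gave -0.51 (SE 0.49) with overlapping groups, and there the sign differed between the pairs. On the dimmer probe embelin was lower in the pair with higher shares. In the other pair it was higher, with 10.82 in control replicate 2 and 11.22 in embelin replicate 1.

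SLC38A1 (SNAT1), a sodium-coupled glutamine carrier whose gene lies next to SLC38A2 on chromosome 12, gave -0.16 with overlapping groups. Its second probe gave 0.01, and it was the only one of 9 carriers with several kept probes whose probes differed in sign. SLC38A6 gave -0.38 with no overlap, and SLC38A8, a gene altered in foveal hypoplasia, gave -0.23 with overlap. SLC38A4, the next gene on chromosome 12, was not well above background on any array, and neither SLC38A3 nor SLC38A5 passed the filter.

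The 4 tested SLC1A genes of 7 had a median of -0.26, which was -0.12 without embelin replicate 1 and -0.37 without embelin replicate 2. SLC1A1 (EAAT3), which takes up glutamate, aspartate and cysteine, had the highest fold change of the tested carriers. It gave 8.22 and 7.74 in control and 8.81 and 8.90 in embelin samples. The groups did not overlap, and the control values were further apart than the embelin values. The log2 fold change was 0.88 (SE 0.23, interval 0.25 to 1.51, adjusted p 0.159 by limma), and its dimmer probe, with 1 embelin value left out as an outlier, gave 0.46 (SE 0.39). SLC1A5 (ASCT2), the sodium-dependent glutamine exchanger on which many tumour lines depend, gave 11.37 and 11.73 in control and 10.91 and 11.25 in embelin samples. Its embelin values lay below its control values, with a log2 fold change of -0.47 (SE 0.23, interval -1.11 to 0.17, adjusted p 0.369 by limma). That is -0.12 in the pair of arrays with higher shares of probes above background and -0.83 in the other pair. SLC1A7, a glutamate carrier of the retina, gave -0.40 with no overlap, and SLC1A4 (ASCT1), a carrier of alanine, serine and cysteine, gave -0.12 with overlap.

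SLC36A4, a carrier of proline and tryptophan, was the 1 tested gene of 4 in its family. It gave 0.29, and both embelin values lay above both control values. SLC43A1 (LAT3) gave 0.15 from 3 values, since embelin replicate 1 was left out as an outlier spot. The deposited table of probe values, which includes that spot, gave 1.47. SLC43A2 (LAT4) gave -0.08, and its sign differed between the pairs of arrays with like background. On the probes that stand for the genes, it was the only one of 17 carriers to do so. A dimmer kept probe of SLC1A4, SLC3A2, SLC7A11 and SLC38A2 also differed in sign between these pairs.

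**Figure D3:**
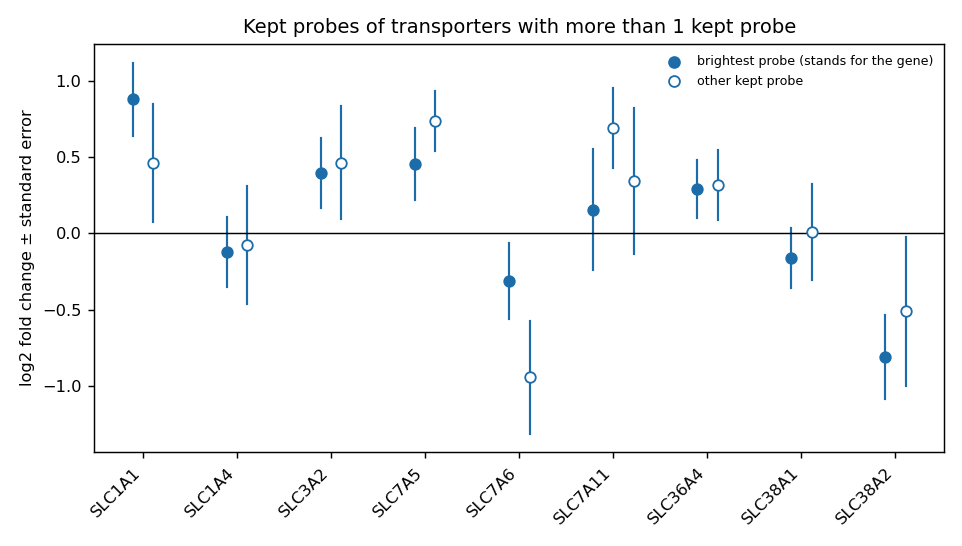
Log2 fold change, embelin over control, with standard error (vertical axis), of every kept probe of the 9 carriers with more than 1 kept probe (horizontal axis). Filled points are the brightest probe, which stands for the gene, and 8 of the 9 carriers have all probes on the same side of 0, the exception being SLC38A1.

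The 18 carriers that were not tested had signals mostly near the background. Counted on the brighter probe where a gene had several, 5 of them (SLC1A6, SLC7A13, SLC7A14, SLC36A2 and SLC38A4) were well above background on no array, in 8 (SLC1A2, SLC7A2, SLC7A3, SLC7A4, SLC7A8, SLC7A9, SLC7A10 and SLC38A3) 1 array was, and in 5 others (SLC1A3, SLC36A1, SLC36A3, SLC38A5 and SLC43A3) 1 array of each group was. The dimmer probe of SLC7A14 was well above background on 1 array, where its spot was left out as an outlier. SLC7A9 and SLC7A13, the light chains that pair with SLC3A1, were thus not measurable beside their heavy chain. Of the light chains that pair with SLC3A2, SLC7A5, SLC7A6, SLC7A7 and SLC7A11 were tested, while SLC7A8 and SLC7A10 were not. SLC36A1, a proton-coupled carrier of the plasma membrane and lysosome, gave 4.02 and 3.53 in control and 3.65 and 4.05 in embelin samples, with no order between the groups. For these genes no change was detectable at this signal.

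Other genes of amino acid handling were set beside the carriers and read against the same shares of all genes, 1.25% called higher and 0.561% lower. Among 13 tested genes of other amino acid carrier families, including the SLC6 and mitochondrial SLC25 carriers, 0 were called, with a median log2 fold change of -0.15. Among 27 enzymes of glutamine, glutamate, cystine and arginine metabolism, 0 were called, with a median of -0.06. ASNS, which makes asparagine and is a known ATF4 target, gave 0.72 (SE 0.16, adjusted p 0.127 by limma). Among 29 genes of amino acid sensing at the lysosome, 1 was called higher and 0 lower, with a median of -0.02. That gene was SESN2, a leucine sensor that restrains mTORC1, with 8.03 and 8.29 in control and 11.05 and 11.30 in embelin samples, a log2 fold change of 3.01 (SE 0.20, adjusted p 0.023 by limma).

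The list of 19 amino acid response factors differed from the lists above in its count. It also holds kinases and transcription factors that answer other stresses, and which stress its count reflects was not tested. Of the 19 genes, 5 were called higher by limma (1.25% of all genes) and 0 lower (0.561% of all genes), with a median of 0.64. This list, like the others, was chosen with earlier results of these data known, so the difference in count is a description and not a test. ATF3, a stress-induced transcription factor, rose by 5.71 on the log2 scale (SE 0.19, adjusted p 0.020). DDIT3 (CHOP), a transcription factor of prolonged stress, rose by 4.24, PPP1R15A (GADD34), which ends the block of translation, rose by 3.27, and TRIB3, a pseudokinase induced by ATF4 and CHOP, rose by 1.97. ATF4 itself gave 16.37 and 16.42 in control and 16.96 and 16.87 in embelin samples, a log2 fold change of 0.52 (SE 0.16, adjusted p 0.199 by limma) with no overlap. Each of these lists was read only by its counts and its median, and 0 of their 6 calls were made with the replicate number or the background of the arrays as a block, without a filter on dim probes, with Student's t-test after adjustment, or with any 1 array left out.

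**Figure D4:**
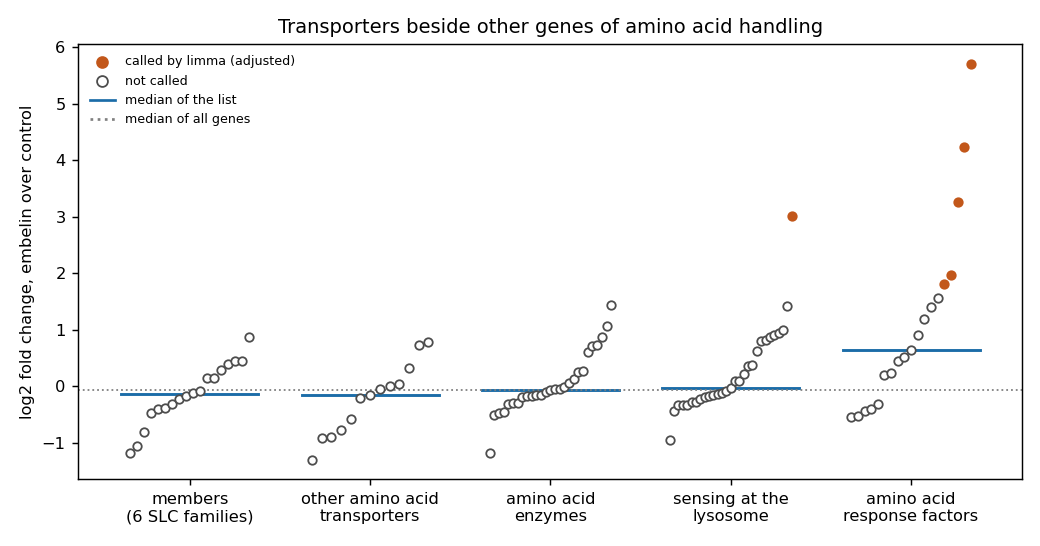
Log2 fold change, embelin over control (vertical axis), of the tested carriers and of 4 lists of other genes of amino acid handling (horizontal axis), 1 point a gene, with filled points for genes called by limma after adjustment and blue lines at list medians. The 18 carriers lie between -1.18 and 0.88 with none called, and 5 of 19 response factors are called.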

How the data were processed

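The authors deposited, per the file headers, the spot intensity written by Agilent Feature Extraction 10.7.3.1 with background subtracted and spatial trends removed, with surrogates for dim spots and no normalization between arrays. Their table of probe values, used as an alternative, was on the same linear scale, with 75th percentiles of 589.4 to 726.2. The study's methods used the 75th percentile for scaling, Student's t-test and a 2-fold limit. Here the 75th percentiles of the arrays were made equal, values under 1 were set to 1 before log2 was taken, and outlier spots were left out. A probe was kept where each array of a group called it well above background, in either group (26146 of 50238), and the brightest kept probe stood for a gene. The groups were compared with limma 3.58.1 (R 4.3.3; prior SD 0.217) and Benjamini-Hochberg adjustment over 17649 genes, called at 0.05. Fold changes are log2 of embelin over control, and intervals are 95%. The alternatives are named in the closing section. The number of arrays limits the precision, and a typical gene had a pooled SD of 0.21 in log2. Carriers were taken by the names in the files, and other genes by their accession in a table of current RefSeq names where it matched (28595 probes). The carriers, the other lists and the tests were chosen with earlier results of these data known. The text gives array values for carriers past a threshold and for 7 carriers of note (SLC3A1, SLC3A2, SLC7A5, SLC7A11, SLC1A5, SLC38A2 and SLC38A9), and for SLC1A1, SLC7A1 and SLC36A1, which were chosen after their values were seen. Of each other list, at most 4 called genes with the largest change are named, and ATF4 and ASNS were named after their values were seen. Promoter windows are RefSeq's.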

Additional observations from a re-analysis of the deposited data

Results flagged for a closer look

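Carriers outside the comparison gave a signal well above background on embelin replicate 1 and on no other array. SLC7A3, a cationic amino acid carrier, had a normalised log2 signal of 8.10 there, and SLC7A4 had 7.78. SLC7A8 (LAT2), a light chain for neutral amino acids, had 8.39, and SLC38A3 (SNAT3), a glutamine carrier, had 8.68. On the other embelin array these probes lay between 1.57 and 2.95, and on the control arrays between 1.83 and 4.14. A second probe of SLC38A3 gave 3.75 on embelin replicate 1 and was not well above background there. These values rest on 1 array each and were outside the comparison of tested carriers. The fit without a filter on dim probes included these genes, but it called 0 of 30969 genes in either direction, so that it called 0 carriers says nothing about them. Over the whole array, 508 probes with a log2 signal over 7 were well above background on embelin replicate 1 alone and 383 on control replicate 2 alone, against 1 each on the remaining arrays, and the part of this in the 4 values was not tested.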

How the results depend on the processing

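Of 286 fold changes of single carriers under alternative settings, 279 kept their direction and their side of the threshold. For carriers with 4 values, the t-test, eBayes with trend and robust, either block and the slide position could not move the fold change. Nor could the fit without a filter or the filter on all 4 arrays where the same probe stood for the gene. The mean over kept probes could not move it where that mean rested on 1 probe. Under these settings the direction was fixed in advance, so the 279 are not all separate checks. With probes well above background on all 4 arrays, 1 carrier was called lower (SLC3A1) in place of 0, where 345 of 15542 genes were called lower. No other alternative called a carrier. At the methods' threshold, 0 carriers were lower with normexp correction, 1 with the filter on all 4 arrays and 1 with eBayes with trend and robust, in place of 2, and leaving out 1 array at a time gave 1 to 3 lower (1 without embelin replicate 1, 3 without control replicate 2) and 0 to 1 higher (1 without control replicate 1). The SLC38A median ran from -0.45 (without control replicate 1) to -0.28 when 1 array was left out. The carriers' median ran from -0.26 to -0.0061, that of SLC1A from -0.37 to -0.12, and that of the light chains that pair with a heavy chain from -0.40 to 0.24. Single carriers also moved by over 1.5 times under this step, such as SLC3A2 (0.17 to 0.62), SLC7A5 (0.26 to 0.65), SLC7A1 (0.25 to 0.67) and SLC1A5 (-0.65 to -0.29). Signs turned when 1 array was left out for SLC1A4 (-0.30 to 0.054), SLC7A11 (-0.25 to 0.56) and SLC43A2 (-0.21 to 0.051), and with normexp correction for SLC43A1 (-0.0046). The cause was not tested.

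The 6 genes of the other lists called higher became 0 without a filter on dim probes, 12 with the filter on all 4 arrays, 0 with the methods' t-test, 18 with eBayes with trend and robust (then with 2 called lower), 0 with the replicate block, 0 with a block for arrays of like background and 0 whenever 1 array was left out. Over all genes, 221 were called higher and 99 lower. These counts were 422 and 277 with normexp, 419 and 345 with the filter on all 4 arrays, 566 and 495 with eBayes with trend and robust, 126 and 33 from the deposited table, 177 and 63 with quantile normalization, and 0 and 0 without a filter, with the t-test, with either block, with position on the slide as a covariate, and whenever 1 array was left out. A percentile taken without outlier spots, chosen after seeing the data, gave 294 and 136. Same-numbered samples deviated together with r = 0.175 over genes and crossed ones with -0.175, which does not establish a pairing with only 2 numbers. The replicate block called 0 carriers. With 1 array left in a group, that array was assumed to vary like the others. Dim probes, such as that of SLC7A7, are limited by the background.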

Other observations

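Further members of the SLC38A family were on the array under older names and lay outside the rule used for the carriers. SLC38A9, which senses arginine at the lysosome, gave 11.23 and 11.13 in control and 10.51 and 10.55 in embelin samples, with no overlap. Its log2 fold change was -0.65 (SE 0.16, 95% interval -1.09 to -0.21), and its adjusted p by limma was 0.143. SLC38A7, a lysosomal glutamine carrier, gave 0.25 and SLC38A10 gave -0.04, each with overlapping groups. SLC38A11 was not well above background on any array.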
